A study of Mus musculus with 6 samples.

Results

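Nuclear genes of oxidative phosphorylation were followed in the whole pancreas of Sirt1-deficient mice and their controls. The members were all genes whose only annotated symbol began with Nduf, Uqcr, Cox4 to Cox8 or Atp5, or was Sdha, Sdhb, Sdhc or Sdhd. They were 89 of the 22180 genes tested. The Sirt1-deficient group was Pdx1Cre;Sirt1ex4F/F (n = 3) and the control group was Pdx1Cre (n = 3). All 6 animals were males of 6 months, and 1 pancreas was hybridized per array. Both groups carried the Pdx1Cre transgene, so by genotype they differed in the floxed Sirt1 exon 4 allele, and not in Cre. The Cre line and the floxed Sirt1 line came on different strain backgrounds, and the methods do not say whether controls were littermates. Whether the groups also differed in strain background was not tested. The Pdx1 promoter drives Cre in the pancreatic epithelium, both exocrine and endocrine, from embryonic life on, while vessels, stroma and blood cells of the organ keep an intact Sirt1 gene. The study describes its driver as mosaic, above all in exocrine tissue, which makes up most of the organ, so some acinar cells may have kept Sirt1. The deletion removes part of the catalytic domain and leaves a truncated transcript.

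The respiratory chain sits in the inner mitochondrial membrane. Complex I takes electrons from NADH and complex II from succinate, ubiquinone carries them to complex III and cytochrome c to complex IV, where oxygen is reduced, and the proton gradient built on the way drives ATP synthesis by complex V. Most subunits are encoded in the nucleus and a few in mitochondrial DNA. In beta-cells the ATP made from glucose closes potassium channels and so triggers insulin release, and in acinar cells it pays for the synthesis and secretion of digestive enzymes. Sirt1 is known to deacetylate PGC-1alpha, a coactivator of the transcription factors of these genes. The comparison therefore asks whether the nuclear genes of the chain differed in level in pancreata with deleted Sirt1.

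No member passed at the unadjusted p under 0.01 that the study used. By limma, 0 of 89 members were higher and 0 were lower at this threshold, against 0.739% and 0.888% of all genes tested, or 1.63% in both directions. At an unadjusted p under 0.05, 1 member was higher (background 2.89%) and 2 were lower (background 3.76%). These 3 members are 3.37% of the 89, against 6.66% of all genes. After Benjamini-Hochberg adjustment over all genes, 0 members and 0.0135% of all genes passed at an adjusted p under 0.05, and the smallest adjusted p of a member was 0.668. The log2 fold change was positive in 46 of the 89 members, or 51.7%, against 45.1% of all genes. The median log2 fold change was 0.0027 over the members and -0.017 over all genes tested. Among the 7802 genes with a mean log2 value of at least 5.66, the 25th percentile of the members, it was -0.0043. Left out in turn, single arrays moved the median of the members between -0.039, without the control pancreas 2, and 0.021, without the control pancreas 1.

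The tissue and the precision of these values set what a missing call can mean. The RNA was of whole pancreas, mostly exocrine, so a change confined to islet cells could be missed here. The standard error of a member's log2 fold change had a median of 0.12 and lay between 0.098 and 0.33. With it, a change of 0.37 on the log2 scale, as a median over the members, would have been needed to pass at p under 0.01. In 75 of the 89 members, or 84.3%, the 95% confidence interval lay wholly between -0.5 and 0.5, that is within a 1.41-fold change either way. The share was 75.4% of all genes and 82.4% of the 7802 genes with a mean log2 value of at least 5.66. In 88 members the interval stayed within a 2-fold change. The exception was the pseudogene Uqcrh-ps1, whose interval ran from -0.40 to 1.10. In 60 members the estimate itself was within 0.1 of 0, in 81 within 0.2 and in 87 within 0.3. For all genes the shares within these bounds were 51.0%, 80.2% and 92.5%, against 67.4%, 91.0% and 97.8% of the members. These shares were not taken for genes as bright as the members. The count of intervals within 0.5 was 65 to 73 when single arrays were left out.

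**Figure D1:**
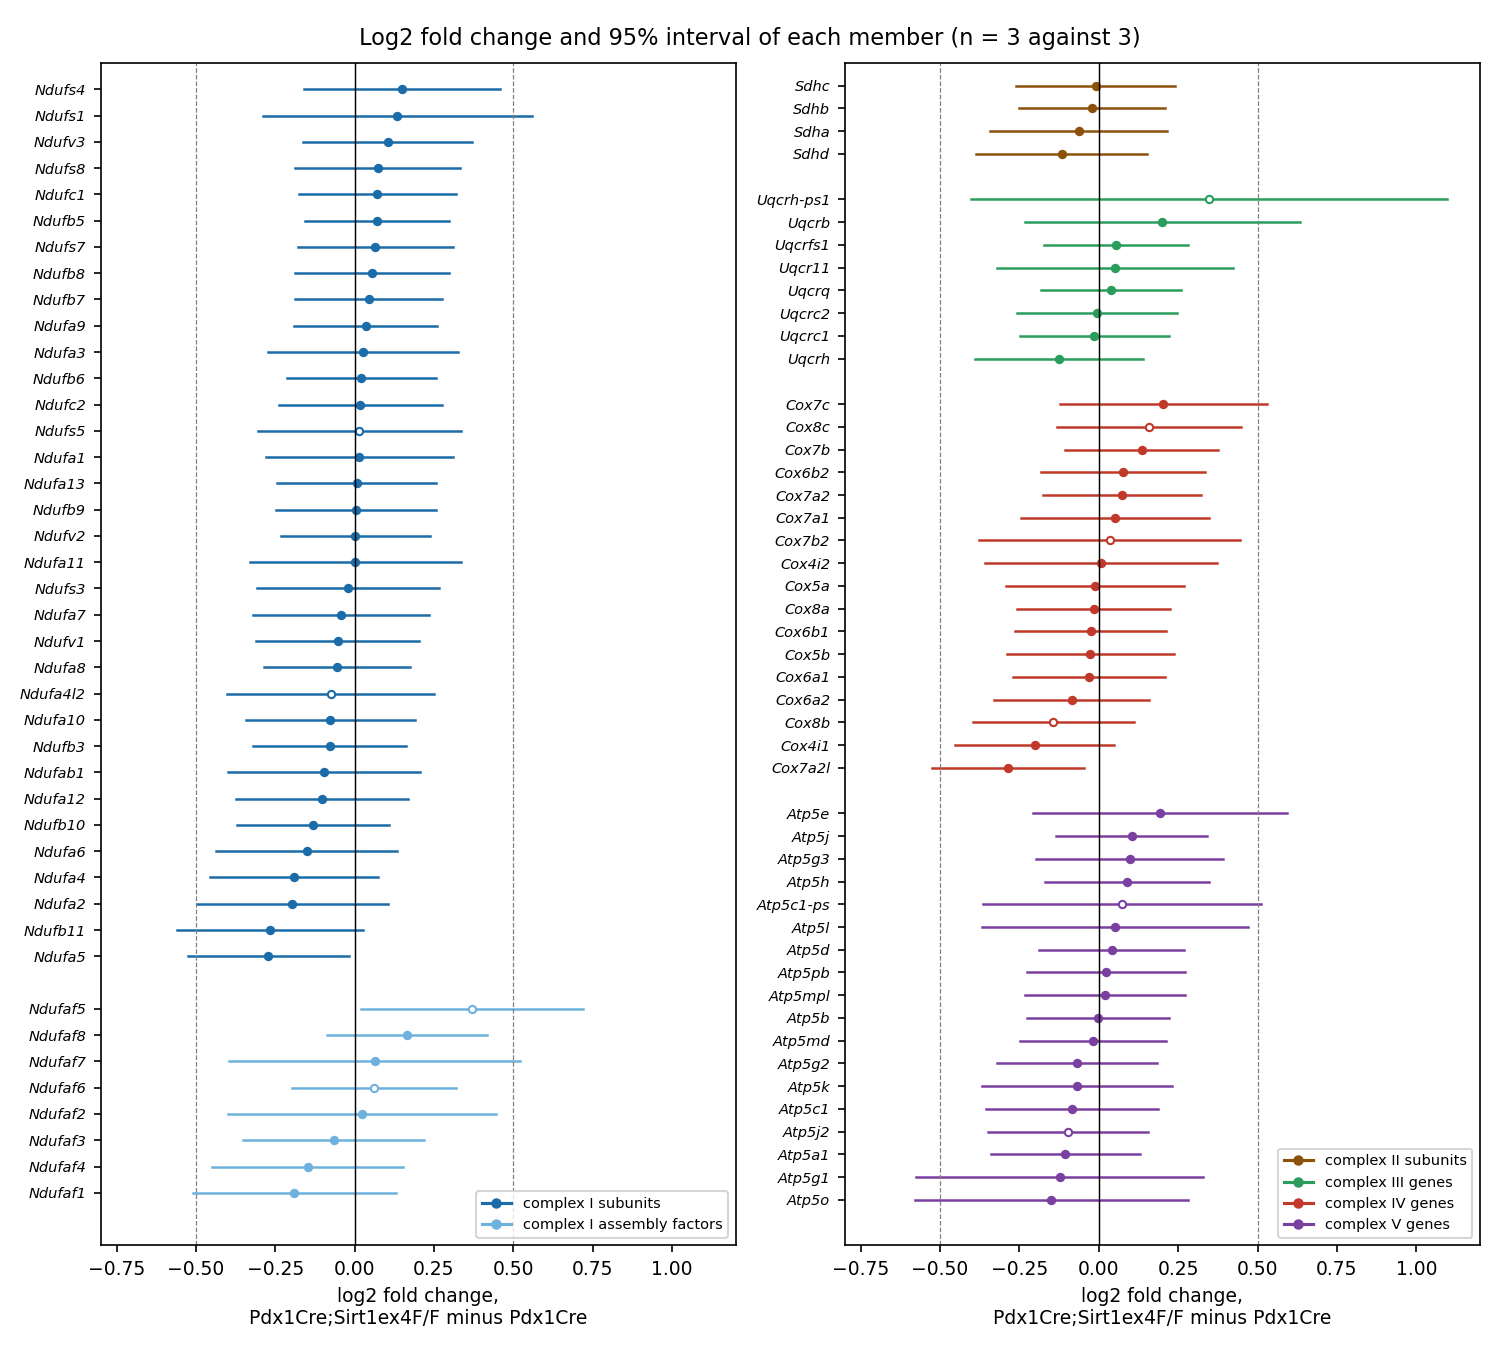
Log2 fold change (Pdx1Cre;Sirt1ex4F/F minus Pdx1Cre, x axis) of each of the 89 members, by class; points are limma estimates, lines 95% confidence intervals, hollow points genes at or below the level of olfactory receptor genes, and dashed lines mark -0.5 and 0.5. The points lie on both sides of 0 in every class but complex II, whose 4 estimates are below 0, and 75 of the 89 intervals lie between the dashed lines.

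**Figure D2:**
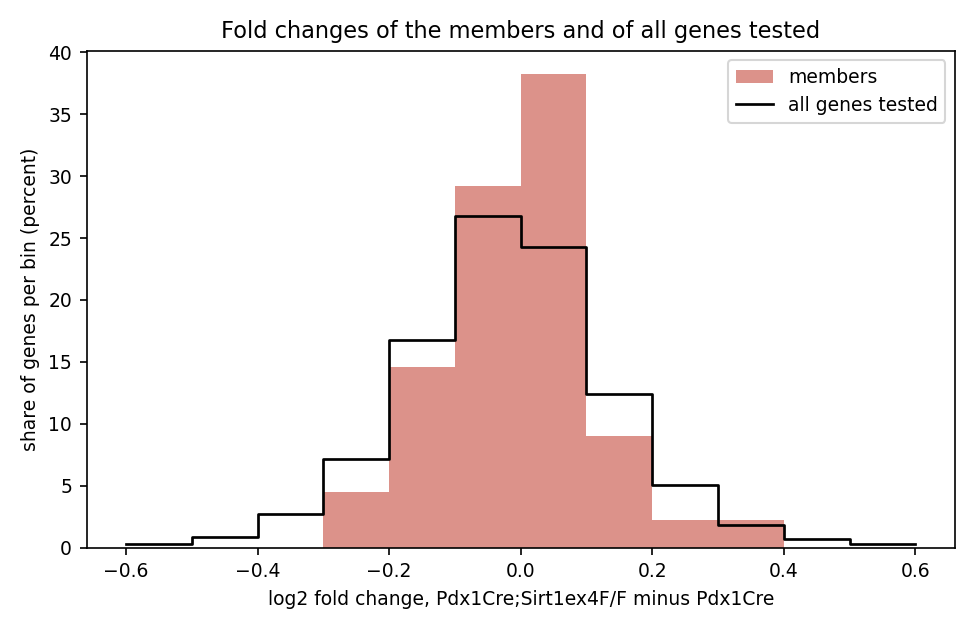
Share of genes (percent, y axis) in each 0.1-wide bin of log2 fold change (x axis), for the 89 members (filled bars) and all 22180 genes tested (line); 162 genes outside -0.6 to 0.6 are not drawn. The members lie closer to 0, with 67.4% within 0.1 of it, against 51.0% of all genes. The median size of the log2 fold change, without its sign, was 0.069 in the members and 0.097 in all genes. In the 7802 genes with a mean log2 value of at least 5.66 it was 0.090.

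The arrays themselves set limits. The log2 values depend on each cluster's own probes, so differences are taken between pancreata within a gene. Levels of different genes are set side by side only as a rough guide to which signals stand above background. Olfactory receptor genes, which the pancreas is not expected to use, gave the level that unbound probes can reach, and their 95th percentile was a log2 value of 4.66. Of the members, 79 had a mean above it and 10 did not. The 10 were the pseudogenes Atp5c1-ps and Uqcrh-ps1, the tissue-restricted Cox7b2, Cox8b, Cox8c and Ndufa4l2, and Atp5j2, Ndufs5, Ndufaf5 and Ndufaf6. For these 10 a missing difference says little. Sirt1 itself read 5.59, 5.69 and 5.83 in the Sirt1-deficient pancreata and 5.84, 5.78 and 5.80 in the controls (log2 fold change -0.11, 95% interval -0.35 to 0.13; exact permutation test, p = 0.3). Which of its probes lie in the deleted exon was not examined, so these values neither bear out nor go against the labels. By RT-qPCR the study found less Sirt1 transcript in both total pancreas and isolated islets of this genotype. It also found a smaller Sirt1 protein in total pancreas. Of the marker lists, 6 of 6 measured acinar and 8 of 8 measured islet genes lay above the olfactory level, and the brightest acinar gene had a mean of 13.69. Of the 8 islet genes, 6 had a negative and 2 a positive fold change (median -0.37). Ppy and Slc2a2 were lower at p under 0.01 by limma (-0.83 and -0.57 on the log2 scale), which is 25% against 1.63% of all genes. Gcg (-0.53) was lower at p under 0.05, at which 3 of the 8 passed (37.5%, against 6.66% of all genes). Ins2 and Pdx1 had estimates of 0.06 each. Of the 6 acinar genes, 4 had a positive and 2 a negative fold change, from -0.20 (Bhlha15) to 0.31 (Ptf1a). Here 0 passed at p under 0.01 and 1, Ptf1a, at p under 0.05 (16.7%, against 6.66% of all genes). Of the 4 measured duct genes, Krt19 (0.26) was higher at p under 0.05 without overlap (25%, against 6.66%). Krt7 (-0.06), Sox9 (-0.14) and Cftr (-0.21, not above the olfactory level) had negative estimates. Of the 5 endothelial genes, 2, Kdr (0.37) and Cdh5 (0.32), were higher at p under 0.05 (40%, against 6.66% in both directions of all genes). Pecam1 had a positive estimate (0.21), while those of Tek (-0.04) and Vwf (-0.10) were negative. All 6 fibroblast and stellate genes (median -0.12) and all 5 macrophage genes (median -0.15) had negative estimates, and 0 of them passed at p under 0.01. At p under 0.05, 1 fibroblast gene, Lum (-0.29), was lower (16.7%, against 6.66% of all genes), and 0 macrophage genes passed. In bulk tissue, fewer cells of a type and less RNA per cell cannot be told apart. The part of cell makeup in the values of the members was not tested.

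Some promoter motifs, which the choice by symbol did not use, were more frequent among the members than among all genes. Of the 89 members, 72 had a promoter in the RefSeq table (build GRCm38.p6) as a window around the gene start, most of it upstream. Motifs were searched on both strands as exact letters and counted once per gene with any of its promoters. The letters GCATGCGC of nuclear respiratory factor 1 (NRF-1), a factor known for activating respiratory genes, stood in 12 of 72 members (16.7%), against 3.05% of the 27025 genes in the table and 4.07% of the 16918 of them that were tested on the array. The core CCGGAAG of ETS factors such as GABP (NRF-2) stood in 19 (26.4%, against 9.93% and 12.7%), and AAGATGGC of YY1 in 10 (13.9%, against 3.19% and 3.65%). At least 1 of these 3 motifs stood in 34 members (47.2%, against 14.9% and 18.6%). TCAAGGTCA, bound by estrogen-related receptors, stood in 2 members (2.78%, against 0.466% and 0.366%). The NRF-1 and YY1 motifs share no bases with the ETS core in the sequences printed here. Ndufaf5 is shown as the member with the largest estimate above 0, Sdhb because it carries both NRF-1 and ETS letters, Atp5j because it carries ETS and YY1 letters, and Cox7a2l because it had the smallest p of all members. Capitals mark the motif letters, each sequence runs 5′ to 3′ on the strand of the gene, and the windows are chr2:140170396-140170695, plus strand for Ndufaf5, chr4:140961021-140961320, plus strand for Sdhb, chr16:84834927-84835226, minus strand for Atp5j and chr17:83514284-83514583, minus strand for Cox7a2l.
Ndufaf5: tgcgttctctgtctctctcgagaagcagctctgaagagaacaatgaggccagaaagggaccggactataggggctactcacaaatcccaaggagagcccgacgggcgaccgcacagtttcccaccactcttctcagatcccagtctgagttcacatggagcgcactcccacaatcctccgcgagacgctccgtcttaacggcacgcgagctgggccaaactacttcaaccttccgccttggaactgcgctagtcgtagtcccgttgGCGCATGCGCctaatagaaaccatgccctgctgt
Sdhb: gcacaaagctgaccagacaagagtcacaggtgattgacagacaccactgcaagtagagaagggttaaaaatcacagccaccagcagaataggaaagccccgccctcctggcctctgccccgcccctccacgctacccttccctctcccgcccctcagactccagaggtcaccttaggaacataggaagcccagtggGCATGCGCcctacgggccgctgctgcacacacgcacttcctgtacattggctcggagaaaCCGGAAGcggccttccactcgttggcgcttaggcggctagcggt
Atp5j: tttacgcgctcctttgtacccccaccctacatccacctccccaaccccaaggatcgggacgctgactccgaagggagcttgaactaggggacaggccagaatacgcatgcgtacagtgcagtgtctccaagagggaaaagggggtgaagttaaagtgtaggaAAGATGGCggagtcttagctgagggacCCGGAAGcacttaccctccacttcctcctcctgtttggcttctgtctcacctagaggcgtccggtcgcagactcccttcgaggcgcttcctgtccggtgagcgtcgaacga
Cox7a2l: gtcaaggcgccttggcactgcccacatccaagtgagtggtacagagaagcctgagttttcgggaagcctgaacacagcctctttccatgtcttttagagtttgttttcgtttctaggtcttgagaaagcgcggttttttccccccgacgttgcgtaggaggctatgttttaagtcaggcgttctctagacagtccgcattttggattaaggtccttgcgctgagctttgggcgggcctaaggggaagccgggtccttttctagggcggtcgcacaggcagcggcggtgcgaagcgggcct
In Ndufaf5 the capitals hold an NRF-1 match on each strand, and the matches overlap. The Cox7a2l window holds none of the 4 motifs as spelled. A match is a description and not a bound site. The 12 members with NRF-1 letters had a median fold change on the log2 scale of -0.027 and ranged between -0.15 and 0.37, and those without had a median of 0.010. The 19 with the ETS core had a median of -0.017 and the 10 with YY1 letters one of 0.060. The 34 members with any of NRF-1, ETS or YY1 had a median of 0.011, against -0.0069 in those without. The medians of the motif groups were not tested against each other.

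Complex I is the largest complex of the chain and had 34 measured genes by symbol, among them Ndufa4, whose product is now placed in complex IV, and its paralog Ndufa4l2. Of these 34, 0 passed at p under 0.01, 19 had a positive and 15 a negative fold change, and the median log2 fold change was 0.0033, with a range of -0.27 to 0.15. The interval lay within 0.5 in 31 of the 34. With Ndufa4 and Ndufa4l2 counted in complex IV, the median was 0.0050 over 32 complex I genes (19 positive, 13 negative) and -0.017 over 19 complex IV genes (8 positive, 11 negative). Ndufa5, an accessory subunit of the arm that takes up NADH electrons, read 6.40, 6.30 and 6.17 in the Sirt1-deficient pancreata and 6.53, 6.69 and 6.47 in the controls. All Sirt1-deficient values lay below all controls, by a small margin. Its log2 fold change was -0.27 (standard error 0.11, 95% interval -0.53 to -0.018, limma p = 0.0383 and adjusted p = 0.716; exact permutation test on both sides, p = 0.1, the smallest that 3 against 3 arrays can give). Ndufb11, an accessory subunit of the membrane arm, read 5.45, 5.49 and 5.56 in the Sirt1-deficient pancreata and 5.71, 5.57 and 6.01 in the controls. The groups touched without overlap, since the Sirt1-deficient pancreas 3 and the control pancreas 2 almost met, and the log2 fold change was -0.27 (95% interval -0.56 to 0.028; exact permutation test, p = 0.1). Without the control pancreas 3 it was -0.14.

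Groups without overlap were rare among the members. In 3 of 89 members, Cox7a2l, Ndufa5 and Ndufb11, every Sirt1-deficient value lay below every control value, against 6.51% of all genes, and in 0 members every Sirt1-deficient value lay above, against 5.23% of all genes.

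Ndufa4 read 7.95, 7.98 and 8.20 in the Sirt1-deficient pancreata and 8.28, 8.09 and 8.33 in the controls, with a log2 fold change of -0.19 (95% interval -0.46 to 0.08). Here the third Sirt1-deficient array overlapped the controls. The core subunits, which carry the flavin and the iron-sulfur clusters, had estimates on both sides of 0. Ndufv1, which binds the flavin, had a log2 fold change of -0.05, and its partner Ndufv2 one of 0.0027. Ndufs7, which holds the last iron-sulfur cluster before ubiquinone, read 10.90, 11.01 and 10.92 in the Sirt1-deficient pancreata and 11.01, 10.86 and 10.77 in the controls. The estimate for Ndufs7 was 0.07, with an interval from -0.18 to 0.31. Ndufs8 (0.07) and Ndufs3 (-0.02) also overlapped between the groups. Ndufs1, the largest core subunit, had a log2 fold change of 0.13 (95% interval -0.29 to 0.56), which rests on the Sirt1-deficient pancreas 3 at 7.24, while the other Sirt1-deficient arrays read 6.58 and 6.51 and the controls 6.79, 6.48 and 6.66. Ndufs4, a subunit whose loss causes Leigh syndrome in humans, had the highest estimate among the complex I subunits, 0.15. Ndufab1, the mitochondrial acyl carrier protein, had one of -0.10. Ndufs5 read 4.004, 3.69 and 3.94 in the Sirt1-deficient pancreata and 3.71, 3.76 and 4.12 in the controls, not above the olfactory level.

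The 8 complex I assembly factors build the complex and do not stay in it. None passed at p under 0.01, 5 had a positive and 3 a negative fold change, and the median was 0.042. This median turned to -0.108 without the control pancreas 2, in which 6 of the 8 factors had their lowest control value. Ndufaf5, which hydroxylates an arginine of Ndufs7, read 4.08, 4.40 and 3.86 in the Sirt1-deficient pancreata and 3.91, 3.76 and 3.55 in the controls. The Sirt1-deficient pancreas 3 lay below the control pancreas 1, so the groups overlapped. The log2 fold change of 0.37 (standard error 0.16, 95% interval 0.019 to 0.72, p = 0.0407 and adjusted p = 0.725 from limma; exact permutation test, p = 0.2) stands below the olfactory level in both groups. Ndufaf8, which stabilizes Ndufaf5, read 6.82, 6.79 and 6.87 in the Sirt1-deficient pancreata and 6.68, 6.504 and 6.79 in the controls. Its estimate was 0.16, with an interval from -0.09 to 0.42. Ndufaf1, needed early for the membrane arm, had a log2 fold change of -0.19 (95% interval -0.51 to 0.13). Ndufaf4, which acts with Ndufaf3, had one of -0.15 (95% interval -0.45 to 0.15). Ndufaf7, a methyltransferase for a core subunit, spread from 5.17 to 5.99 within the controls, wider than its difference of 0.06 between the groups.

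**Figure D3:**
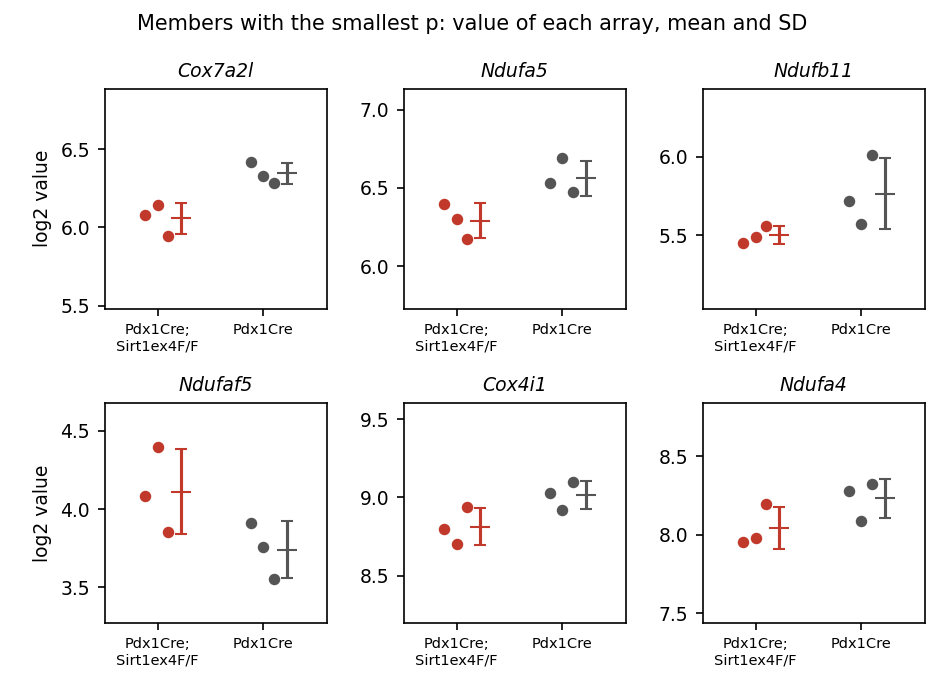
Log2 values (y axis, a span of 1.4 in every panel) of the 6 members with the smallest p in the Pdx1Cre;Sirt1ex4F/F (red, n = 3) and Pdx1Cre pancreata (grey, n = 3); points are arrays, bars the mean with SD. Cox7a2l, Ndufa5 and Ndufb11 have no overlap between the groups, and none of the 6 passed at p under 0.01.

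Complex II, which is also an enzyme of the tricarboxylic acid cycle, is encoded wholly in the nucleus, and all 4 subunits were measured. All 4 estimates were below 0, with a median of -0.042 and a range of -0.12 to -0.01, and none was larger than its standard error. The flavoprotein Sdha read 8.83, 8.72 and 8.98 in the Sirt1-deficient pancreata and 8.95, 8.73 and 9.05 in the controls. The iron-sulfur protein Sdhb read 8.30, 8.29 and 8.45 in the Sirt1-deficient pancreata and 8.36, 8.37 and 8.37 in the controls, the smallest control spread of all members (SD 0.0063, n = 3). The membrane anchor Sdhd had the lowest estimate, -0.12 (95% interval -0.39 to 0.15; exact permutation test, p = 0.4), and the other anchor Sdhc one of -0.01. In all 4 the groups overlapped and the interval lay within 0.5.

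Complex III passes electrons from ubiquinol to cytochrome c and had 8 measured genes, 1 of them the pseudogene Uqcrh-ps1. None passed, 5 had a positive and 3 a negative fold change, and the median was 0.045. The core proteins Uqcrc1 (-0.01) and Uqcrc2 (-0.0043) and the Rieske iron-sulfur protein Uqcrfs1 (0.06) had estimates near 0, each with an interval within 0.3 of it. Uqcrb, next to the ubiquinone site, read 10.63, 10.52 and 11.21 in the Sirt1-deficient pancreata and 10.65, 10.32 and 10.79 in the controls. Its estimate of 0.20 (95% interval -0.23 to 0.63) turned to -0.01 without the Sirt1-deficient pancreas 3. The hinge protein gene Uqcrh read 8.31, 8.48 and 8.14 in the Sirt1-deficient pancreata and 8.45, 8.38 and 8.47 in the controls, with a log2 fold change of -0.12. Uqcrh-ps1 had the widest spread of all members, 3.66, 4.45 and 3.32 in the Sirt1-deficient pancreata and 3.73, 3.91 and 2.75 in the controls, all below the olfactory level.

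Complex IV reduces oxygen, and 17 of its nuclear genes were measured under a Cox symbol. None passed at p under 0.01, 8 had a positive and 9 a negative fold change, and the median was -0.012. It was 0.048 without the Sirt1-deficient pancreas 3. Cox7a2l, which ties complexes III and IV together into supercomplexes, had the smallest p of all members. It read 6.08, 6.14 and 5.95 in the Sirt1-deficient pancreata and 6.42, 6.33 and 6.29 in the controls, with no overlap. The means were 6.06 ± 0.10 (SD, n = 3) in the Sirt1-deficient pancreata and 6.34 ± 0.07 (SD, n = 3) in the controls, a 1.22-fold lower level in the Sirt1-deficient pancreata that did not pass (log2 fold change -0.29, standard error 0.11, 95% interval -0.53 to -0.047, p = 0.0238 and adjusted p = 0.668 from limma; exact permutation test, p = 0.1). Leaving out single arrays moved this estimate between -0.33 and -0.23, and p was under 0.05 in 4 of 6 such fits. Cox7c, a small subunit of the membrane part, read 4.78, 5.07 and 5.12 in the Sirt1-deficient pancreata and 4.74, 4.59 and 5.03 in the controls, and the values overlapped.

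Several subunits of complex IV exist as a widespread form and a form restricted to certain tissues. Cox4i1, the widespread form of the subunit that senses ATP, read 8.80, 8.70 and 8.94 in the Sirt1-deficient pancreata and 9.03, 8.92 and 9.10 in the controls. The Sirt1-deficient pancreas 3 reached into the range of the controls, just over the control pancreas 2, and the other arrays did not overlap. Its log2 fold change was -0.20 (95% interval -0.45 to 0.05, limma adjusted p = 0.816; exact permutation test, p = 0.2). Its counterpart Cox4i2, known from lung and from low oxygen, had a log2 fold change of 0.01 (95% interval -0.36 to 0.37). Of the heart and muscle forms, Cox6a2 had an estimate of -0.09, Cox7a1 one of 0.05 and Cox8b one of -0.14, and of the 5 skeletal and heart muscle markers 0 passed at p under 0.05, with Ckm at 0.25 (95% interval -0.049 to 0.55). The widespread counterparts were Cox6a1 at -0.03, Cox7a2 at 0.07 and Cox8a at -0.02, all with intervals within 0.35 of 0. The testis forms Cox6b2 (0.08), Cox7b2 (0.03) and Cox8c (0.16) and the widespread Cox6b1 (-0.03) and Cox7b (0.13) overlapped between the groups as well. Cox7b2 averaged 1.69 ± 0.30 in the Sirt1-deficient pancreata and 1.65 ± 0.29 in the controls (SD, n = 3 each), with Cox8b and Cox8c likewise below the olfactory level.

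**Figure D4:**
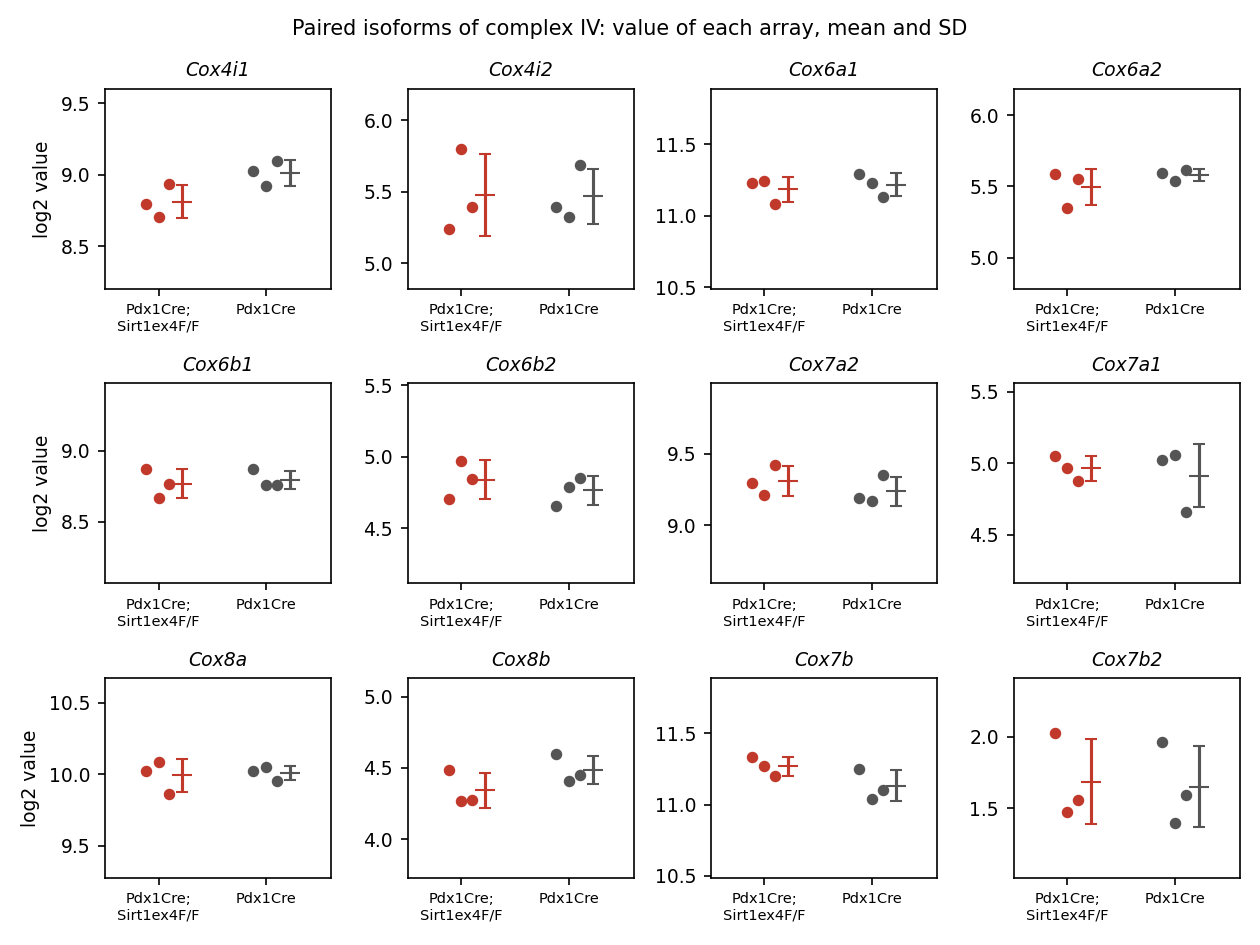
Log2 values (y axis, a span of 1.4 in every panel) of widespread and tissue-restricted forms of 6 complex IV subunits in the Pdx1Cre;Sirt1ex4F/F (red, n = 3) and Pdx1Cre pancreata (grey, n = 3); points are arrays, bars the mean with SD. The groups overlap in every panel, least in Cox4i1, where the Sirt1-deficient mean is 8.81 and the control mean 9.01.

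Complex V makes ATP and had 18 measured genes, 1 of them the pseudogene Atp5c1-ps. None passed at p under 0.05, 9 had a positive and 9 a negative fold change, and the median was 0.0083, with a range of -0.15 to 0.19. The catalytic beta subunit Atp5b read 11.80, 11.82 and 11.83 in the Sirt1-deficient pancreata and 11.87, 11.75 and 11.85 in the controls, a log2 fold change of -0.0020 (95% interval -0.23 to 0.22). The alpha subunit Atp5a1 read 9.29, 9.24 and 9.35 in the Sirt1-deficient pancreata and 9.48, 9.29 and 9.42 in the controls, with an estimate of -0.11. Atp5e, the epsilon subunit of the rotating stalk, had one of 0.19, and its values in the third pancreas of each group, 7.69 in the Sirt1-deficient and 7.47 in the control group, were the highest. Atp5j, the coupling factor F6, had one of 0.10. Atp5o, which joins the fixed stalk to the catalytic head, spread from 5.03 to 5.88 within the Sirt1-deficient pancreata, against 5.49 to 5.67 in the controls, with a log2 fold change of -0.15 (95% interval -0.58 to 0.28). The proton-carrying c ring is encoded by Atp5g1, Atp5g2 and Atp5g3, whose products differ in their import sequences but give the same mature protein. Their log2 fold changes were -0.12, -0.07 and 0.10, none larger than its standard error. Atp5g1 rested on a wide control group, at 5.54, 4.62 and 5.03, against 4.85, 4.97 and 4.996 in the Sirt1-deficient pancreata.

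A transcript cluster gathers the probes of 1 gene model. For 9 members the array had a second one, and only the brighter was used above. In 5 of the 9 genes both clusters had estimates of the same sign. In Atp5h (0.09 and -0.08) and Cox7b (0.13 and -0.06) the signs differed, and the second cluster lay below the olfactory level. In Ndufa8 (-0.06 and 0.17) they differed with both clusters above it. Where each cluster lies in the genome was not examined. Atp5d, the delta subunit of the rotating stalk, read 9.08, 8.12 and 8.48 in the Sirt1-deficient pancreata and 8.01, 7.86 and 8.17 in the controls by its second cluster, a log2 fold change of 0.55 (95% interval 0.065 to 1.03) from a limma fit over all clusters. Its first cluster gave 0.04, with an interval from -0.19 to 0.27. The second cluster of Ndufa11, a membrane arm subunit, read 4.11, 4.56 and 4.33 in the Sirt1-deficient pancreata and 4.66, 4.68 and 4.97 in the controls, a log2 fold change of -0.44 (95% interval -0.76 to -0.11), and lies below the olfactory level, while the first gave 0.0023. Both second clusters were past an unadjusted p under 0.05 and neither was past 0.01. A further 9 symbols of the rule, such as Uqcr10, Cox6c, Ndufb2, Ndufb4 and Ndufs6, stood only on clusters with several symbols and were not used here.

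The values of each array showed which pancreata were high or low. Centred on each gene's mean, the members as a whole averaged -0.022, -0.00092 and 0.016 in the Sirt1-deficient pancreata and 0.057, -0.082 and 0.031 in the controls. The control pancreas 2 was thus lowest and the control pancreas 1 highest, and the Sirt1-deficient pancreata lay between them. In 59 of the 89 members (66.3%) the control pancreas 2 had the lowest control value. The same held in 41.2% of all genes and in 67.0% of the 7802 genes with a mean log2 value of at least 5.66, the 25th percentile of the members,. All 6 classes had a mean below 0 in the control pancreas 2, from -0.19 in the assembly factors to -0.045 in complex IV.

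**Figure D5:**
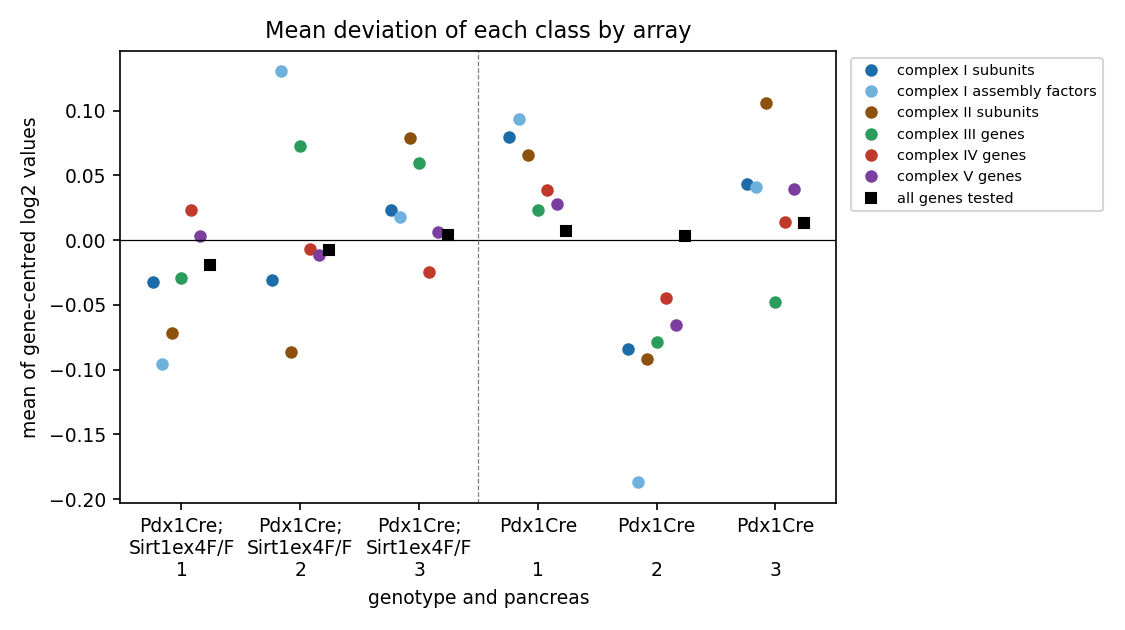
Mean of the gene-centred log2 values (y axis) of each class of members and of all genes tested (black squares) on each array (x axis; 3 Pdx1Cre;Sirt1ex4F/F pancreata, then 3 Pdx1Cre pancreata). Every class is below 0 in the control pancreas 2, where all genes tested average 0.0030 and the 7802 genes with a mean log2 value of at least 5.66 average -0.084, and the controls span a wider range than the difference between the groups.

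Other genes of the pathway were listed apart from the symbol rule. Of 23 measured electron carriers, ubiquinone enzymes and remaining subunits, 1 was higher and 1 was lower at p under 0.01, which is 8.70% against 1.63% of all genes. At p under 0.05 it was 3 of 23 (13.0%, against 6.66%), and in 5 of 23 (21.7%, against 11.7%) the groups did not overlap. These 23 genes had a median of 0.014 on the log2 scale. Coq5, a methyltransferase of ubiquinone synthesis, was lower. It read 6.51, 6.62 and 6.62 in the Sirt1-deficient pancreata and 7.15, 6.89 and 7.08 in the controls, without overlap (log2 fold change -0.45, standard error 0.11, p = 0.00258 and adjusted p = 0.424 from limma; exact permutation test, p = 0.1). Coq10a, which binds ubiquinone and is needed for its use in the chain, was higher. It read 7.87, 7.97 and 7.96 in the Sirt1-deficient pancreata and 7.60, 7.46 and 7.504 in the controls (log2 fold change 0.41, standard error 0.10, p = 0.00266 and adjusted p = 0.427 from limma; exact permutation test, p = 0.1). Neither passed after adjustment over all genes. Cytochrome c itself, Cycs, had a log2 fold change of 0.06, and the complex III subunit Cyc1, which the symbol rule leaves out, one of 0.03. Of 40 measured assembly factors, 0 passed at p under 0.01, against 1.63% of all genes. At p under 0.05, 1 was higher, Nubpl (0.29), and 2 were lower (7.5%, against 6.66%). In 4 of 40 (10%, against 11.7%) the groups did not overlap. The smallest p was that of Taco1, a translational activator of mitochondrial Cox1, at -0.35 (exact permutation test, p = 0.1; limma adjusted p = 0.641). Of 22 genes that control transcription of the chain and mitochondrial DNA, 0 passed at p under 0.05 (against 6.66% of all genes), with a median of -0.019. Ppargc1a, which encodes PGC-1alpha, had the smallest limma p of this list. It read 5.62, 5.57 and 5.82 in the Sirt1-deficient pancreata and 5.85, 5.64 and 6.28 in the controls, an overlap, with a log2 fold change of -0.26 (95% interval -0.62 to 0.11; exact permutation test, p = 0.2). Nrf1, Gabpa and Tfam, the factors that act on nuclear and mitochondrial genes of the chain, had log2 fold changes of -0.02, -0.02 and 0.03. These values are of whole pancreas. In isolated islets, the study's RT-qPCR found no significant difference in Ppargc1a, Pparg or Tfam. The subunits encoded in mitochondrial DNA were not analysed here, as none of their symbols stood alone on a cluster.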

How the data were processed

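Whole pancreas RNA of 3 Pdx1Cre;Sirt1ex4F/F and 3 Pdx1Cre mice was hybridized to GeneChip Mouse Gene arrays. The authors deposited log2 values. They had read the scans with oligo in R and applied Robust Multi-array Average (RMA), which corrects background, equalizes the arrays by quantiles and summarizes the probes of a cluster. Versions and build: not given in the sources used here. Single probes were not used here.

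Of 41345 clusters, the 23521 with exactly 1 symbol in the platform annotation were kept, and for each of 22180 genes the cluster with the highest mean over the 6 arrays was used. Groups came from the genotype labels. Genotypes were compared over all genes with limma (version 3.58.1, R version 4.3.3), taking the difference of Pdx1Cre;Sirt1ex4F/F from Pdx1Cre and no covariates, with an unadjusted p under 0.01 as threshold and Benjamini-Hochberg adjustment over all genes. Single genes also had an exact 2-sided permutation test, which cannot go below 0.1 here. The number of arrays limits the precision, and the methods describe 3 pancreata per genotype. Arrays correlated at 0.974 to 0.984 over all clusters.

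The text names every member past the threshold, the 3 members of each class with the smallest p, the isoform groups, the highest and lowest mean of a class, the 5 widest spreads and, of related lists, members past the threshold or with the smallest p; other genes were named for their role after values were seen. Members and lists were chosen with earlier results of these data known. Steps were tested on simulated data. Alternatives were the mean of a gene's clusters, every cluster on its own, another centring, a second quantile normalization, each array left out, dim genes left out, weights for arrays, a robust variance trend over intensity and a block for the replicate number.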

Additional observations from a re-analysis of the deposited data

How the results depend on the processing

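With every alternative, 0 members passed at an unadjusted p under 0.01 or at an adjusted p under 0.05, in 14 alternative fits. With the threshold at an unadjusted p under 0.05, 3 members passed, and 1 to 5 members or clusters across the alternatives. Deviations of arrays with the same replicate number in the labels correlated at -0.11, 0.16 and 0.16. Arrays of unlike number were not set beside them, so these values cannot show whether the arrays were paired. With the replicate number as a block, 0 members passed at p under 0.01 and 3 at p under 0.05, and the medians could not change. With single arrays left out, the median log2 fold change of complex I assembly factors lay between -0.108 and 0.126, that of complex IV genes between -0.043 and 0.048, that of complex I subunits between -0.050 and 0.030, that of complex II subunits between -0.104 and -0.0020, that of complex III genes between -0.0036 and 0.056 and that of complex V genes between -0.030 and 0.027. The cause of these shifts was not tested. Array weights gave a median of -0.030 over all members. Of 539 values of the 42 members named by rule under an alternative, 44 had the other sign, none of them past the threshold. Dim signals limit 10 members, and without these and the pseudogenes the median of 79 members was -0.0020. Counting Ndufa4 and Ndufa4l2 with complex IV, chosen after seeing the data, left the medians of complexes I and IV at 0.0050 and -0.017.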

Other observations

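Enzymes of the tricarboxylic acid cycle, which feed NADH and succinate to the chain, were not called either. Of 17 measured genes, 0 passed at an unadjusted p under 0.05 from limma, against 6.66% of all genes. The fold change was positive in 5 and negative in 12, while 45.1% of all genes had a positive one. The median log2 fold change was -0.060. In 2 genes, Idh2 and Suclg1, the Sirt1-deficient values lay below all controls (11.8%, against 11.7% of all genes without overlap in either direction). Idh2, the mitochondrial isocitrate dehydrogenase that makes NADPH, had the smallest limma p, with a log2 fold change of -0.17 (exact permutation test, p = 0.1; limma adjusted p = 0.845). In 17 of the 17 genes the control pancreas 2 had the lowest control value. The same held in 41.2% of all genes and in 67.0% of the 7802 genes with a mean log2 value of at least 5.66. The centred mean of the list was -0.050, -0.070 and 0.044 in the Sirt1-deficient pancreata and 0.107, -0.115 and 0.084 in the controls.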
